A study of Homo sapiens with 197 samples.

Results

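ATAD2 is 1 of 57 endogenous rows, and 1 of the 42 rows for tissue-restricted genes, in a Nanostring panel that was counted in every lane of a screen of activated kinases. It was chosen by name, and its level is described here in the kinase wells, in 2 fibroblast lines and in a reference RNA. The panel counts RNA molecules with fluorescent barcoded probes and without amplification. ATAD2 encodes an ATPase of the AAA+ class that carries a bromodomain, the module that binds acetylated histone tails, and it is known as a chromatin cofactor of E2F and MYC. It is abundant in germ cells, embryonic cells and many tumours, and in somatic cells its expression goes with replication of DNA. ATAD2 is read below beside 2 rows named for DNA methylation genes, Tet1 and UHRF1, which were chosen by name as well. Tet1 is an enzyme that oxidizes methylated cytosine, and UHRF1 brings the maintenance methyltransferase to newly copied DNA.

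The cells were IMR90, a line of non-transformed human lung fibroblasts. Each kinase was carried by a retroviral vector, joined to a myristoylation signal that takes it to membranes and to a Flag tag, and RNA was taken from 1 well per kinase, 4 days after the virus was added. The controls were IMR90 cells with the empty vector, in 2 samples and 3 lanes. SW39, in 2 samples, is a transformed derivative of IMR90 and carried no kinase according to its titles, although its other labels repeat the kinase collection and the IMR90 line. The reference was 1 RNA mixed from 10 cancer cell lines and counted in 6 lanes, so that its spread is technical. The lane of the kinase HK1 was left out, because it held 1 count of ATAD2 and 92 endogenous counts in all. The lanes that remain beside 3 control, 2 SW39 and 6 reference lanes were kinase wells with 1 lane each, except PIK3CG and PTK2, which had 2. Nothing states that the 2 control or 2 SW39 samples came from separate cultures. The p-values between them rest on the spread between these samples, which edgeR pools in part over all rows tested. They do not measure a spread between cultures. No row of the panel marks fibroblasts, and the identity of the cells could not be checked with markers.

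The kinase lanes held between 29629 and 340763 counts in all, with a median of 160138. ATAD2 gave 28 to 380 counts in them, and in every kinase lane it exceeded the mean + 2 SD of the 8 negative controls counted there, by a factor of at least 3.22. At the median ATAD2 count of these lanes, counting error alone has an SD of 0.11 on the log2 scale. Levels below are normalized counts, scaled by the positive controls and then by PGK1, TBP and TUBB2A, and intervals are 95% Poisson intervals that cover counting error only.

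The names of some other rows did not go with where their counts were found. The row named MyrFlag was counted at 679.3 and 683.2 in the controls, which carry no tagged kinase, and at 2579 and 2901 in SW39. The row named ZBTB33 was at 8.94 and 15.98 in the controls, at 6.36 and 7.003 in SW39 and at 149.9 to 114790 in the kinase wells. The row DNMT1 had a median of 16 counts in the kinase lanes and passed the negative-control level in 22.2% of them. Which molecule each of the 15 endogenous rows outside the tissue-restricted list counted was not tested. These rows are called below by their deposited names. What is given for one of them is not shown to hold for the gene or tag of that name. ATAD2 is listed among the tissue-restricted rows, under an accession that matches the gene's RefSeq transcript.

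ATAD2 was low but measurable in IMR90 and far higher in SW39. The control samples were at 188.7 and 196.2, the SW39 samples at 2693 and 3052, and the 6 reference lanes at 1480 to 1698 with a median of 1581. The order was SW39, then the reference RNA, then IMR90, and no lane of one group overlapped another. SW39 was 14.8-fold above the controls, a log2 difference of 3.89 with an SE of 0.19 (edgeR's quasi-likelihood test over 57 rows, Benjamini-Hochberg adjusted p = 4.51e-39). In that fit 22.8% of the rows passed the test, 8 of them higher and 5 lower in SW39. ATAD2 had the largest difference of all. Its p-value depends on the rows that share the fit. Over only the 14 rows above the negative-control level, the log2 difference was again 3.89 and the adjusted p 2.69e-05 in the same edgeR test. Leaving out either control or either SW39 sample, which leaves 1 sample in a group whose spread is then assumed to be that of the other, gave log2 differences of 3.79 to 3.97 and adjusted p-values up to 0.0447. The reference RNA was 8.18-fold above the controls, a value with no test.

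**Figure D1:**
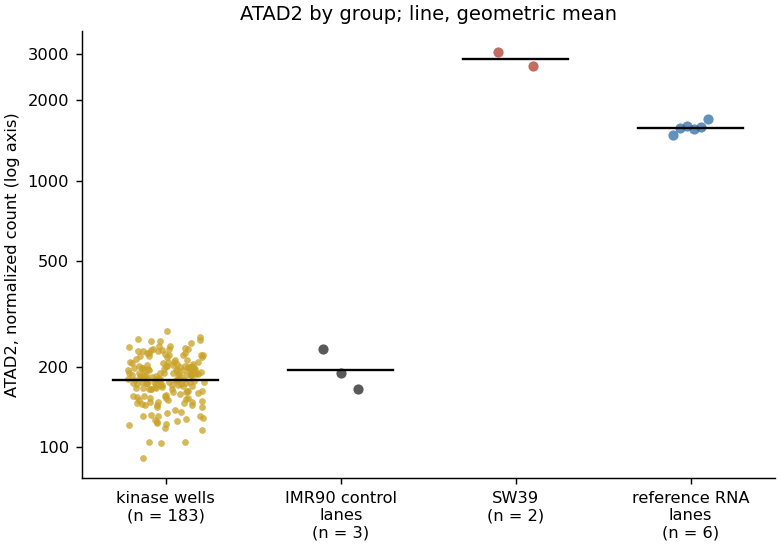
Normalized counts of ATAD2 on a log axis, for the kinase wells, 3 lanes of IMR90 controls, 2 SW39 samples and 6 lanes of reference RNA, with a line at each geometric mean. SW39 at 2693 and 3052 and the reference lanes at 1480 to 1698 lie above every kinase well, the highest of which is at 272.95.

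Among the rows that rose with ATAD2 in SW39 were those named Tet1 and MyrFlag, while the row named UHRF1 did not pass the test. Whether these rows counted the molecules they are named for was not tested. Tet1 went from 387.3 and 365.9 in the controls to 3197 and 3593 in SW39, a log2 difference of 3.17 (SE 0.18, adjusted p = 2.27e-33 in the same edgeR fit). MyrFlag differed by 2.01 on the log2 scale (SE 0.17, adjusted p = 2.86e-20). The row PPM1D, named for a phosphatase of the p53 response, differed by 1.28 (SE 0.16, adjusted p = 6.75e-12). UHRF1 was at 698.1 and 882.5 in the controls and at 579.5 and 723.2 in SW39, groups that overlapped, with a log2 difference of -0.29 (SE 0.17, adjusted p = 0.286). ADAM12, a metalloprotease and another tissue-restricted row, rose from 35.8 and 38.8 to 93.7 and 120.9 (adjusted p = 1.4e-14 in the edgeR fit). The negative-control level in the control lanes was 17.1 to 25.9 counts, so ADAM12 was not far above background there. DAZL, a germ cell RNA-binding protein, also passed in edgeR (SE 0.47, adjusted p = 0.0164). FMR1NB, a testis gene, passed in the other direction (log2 difference -1.01, SE 0.32, adjusted p = 0.029). In the kinase lanes neither of these 2 rows had a median count above the median negative-control level. Their differences are therefore less certain in size than that of ATAD2. ATAD2 exceeded the other tissue-restricted rows in the size of its difference, with 3.89 against 1.49 for ADAM12 and 1.64 for DAZL on the log2 scale.

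The normalizing genes themselves differed between the groups. In SW39, TUBB2A was 0.533 of its control level, PGK1 1.22 and TBP 1.54 on the same scale. Scaled by one normalizing gene at a time, a choice made after seeing the data, the fold of SW39 over the controls ran from 9.65 with TBP to 27.8 with TUBB2A, and with the positive controls alone it was 24.7. For the reference RNA the same choices gave 4.14 with PGK1 to 21.6 with TUBB2A. In each of 7 scalings the lowest SW39 sample lay above the highest reference lane, by a factor of 1.04 with TUBB2A alone to 2.63 with PGK1 alone, and the lowest reference lane lay at least 2.52 times above the highest kinase well. In bulk RNA, fewer cells with the transcript and less of it per cell cannot be told apart.

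In the kinase wells ATAD2 stayed close to its level in the controls. The wells ran from 90.96 to 272.95, with a median of 181.9 and quartiles of 160.05 and 201.34, which is an SD of 0.285 on the log2 scale. On average they were 0.11 lower than the controls on the log2 scale. An exact permutation test, two-sided, with 17020 ways to pick the 2 control wells, gave p = 0.578. It takes the wells of different kinases together, 1 well each, and cannot show whether any 1 kinase changed ATAD2. Against the mean of the controls, 92.9% of the wells were within 1.5-fold, 1 well was more than 2-fold lower and 0 were more than 2-fold higher. The 3 control lanes ran from 164.7 to 233.7, a factor of 1.42. The lowest of them carries the name of 1 control and the number of the other. Above these lanes lay 11 kinase wells, 53 lay below them and the rest between. Counting error was narrower than these differences in few wells. Of the wells with 1 lane, 1 had its whole interval above the control lanes and 20 had it below.

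Wells beyond 2.5 SD were found on the low side only. ATAD2 had 0 wells with a Z-score above 2.5, where 0.390% of all pairs of a well and a tissue-restricted row passed, and 4 wells below -2.5, which is 2.19% of wells, where 0.742% of all pairs passed. These counts have no test, because each kinase had 1 lane. The lowest well was MAPK12, which is p38 gamma, a stress-activated kinase. It was at 90.96, from 48 counts, with an interval of 67.1 to 120.6 and a Z-score of -3.39. STK32C followed at 103.6, from 73 counts, with a Z-score of -2.74. GRK6, a kinase that acts on activated G protein-coupled receptors, was at 104.3, with an interval of 85.8 to 125.6 and a Z-score of -2.70. MAP3K14, also called NIK, the kinase of the alternative NF-kB pathway, was at 104.35, with an interval of 85.35 to 126.3 and a Z-score of -2.70. The intervals of these 4 wells overlap, and their order is not resolved.

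The 6 next wells, just inside the threshold, lay between 115.4 and 124.3. They were PAK4 at 115.4, SPHK2 (which phosphorylates sphingosine) at 117.7, MAP2K7 (an activator of JNK) at 120.3, PKM2 (a pyruvate kinase) at 121.7, MVK (mevalonate kinase) at 122.9 and LIMK1 (which phosphorylates cofilin) at 124.3. Their Z-scores ran from -2.19 to -1.82. With PAK4's interval of 86.5 to 151.01, from 53 counts, it cannot be set apart from the 4 wells below it.

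At the other end MAPK7, known as ERK5, had the highest level, 272.95 from 380 counts, with an interval of 246 to 302 and a Z-score of 2.16. CDK9, which releases paused RNA polymerase II, was at 258.1, CAMKV, a calmodulin kinase-like protein, at 254.1, and the tyrosine kinase SYK at 252.8. DYRK2 was at 250.1, CKS2, a small subunit of cyclin-dependent kinases, at 248.8, and PDK1, here the pyruvate dehydrogenase kinase, at 244.8. PLK3 (a polo-like kinase) at 240.2, UCK2 (uridine-cytidine kinase) at 238.5 and TK1 (thymidine kinase) at 237.2 completed the highest 10. The interval of CDK9, 231 to 287, overlaps that of MAPK7, so that neighbours in this order do not differ beyond counting error.

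**Figure D2:**
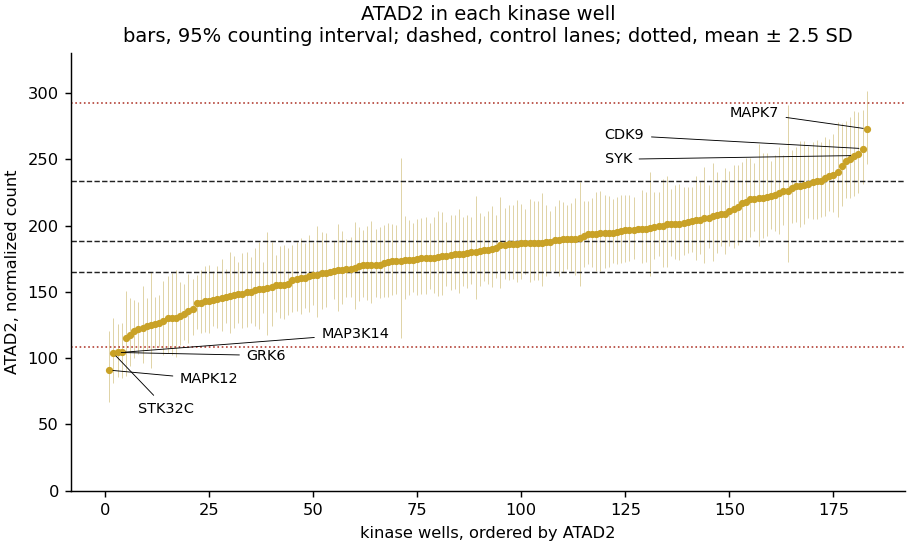
Normalized count of ATAD2 in each kinase well in increasing order, with 95% Poisson intervals for wells of 1 lane, dashed lines at the 3 control lanes and dotted lines at 2.5 SD on either side of the mean. The 4 wells below the lower dotted line lie between 90.96 and 104.4, and no well passes the upper one.

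MAPK12 had a Z-score below -2.5 in each of the 16 settings that included it, and GRK6, MAP3K14 and STK32C did so in 12 of 17, 12 of 17 and 12 of 16. Of these, MAP3K14 moved most, with a Z-score of -0.25 when scaled by the positive controls alone, -1.06 with TBP alone and -4.25 with TUBB2A alone. Its normalized TBP, 321.0, was the lowest of all kinase wells, and its TUBB2A, 5650, was near the highest, 5675. With the positive controls alone GRK6 was at -1.66 and MAPK12 at -4.26.

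The rows Tet1, MyrFlag and UHRF1 were also low in these wells. In MAPK12 their Z-scores were -1.61, -2.92 and -2.05, and in MAP3K14 they were -2.56, -2.83 and -2.36. In STK32C they were -2.11, -1.41 and -1.84, and in GRK6 -0.91, -0.78 and -1.13. Each of the 10 lowest wells for ATAD2 was below the mean for all 3 of these rows. Of the 10 highest wells, 10 were above the mean for Tet1, 10 for MyrFlag and 9 for UHRF1, the exception being SYK with 677.9 for UHRF1.

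No kinase family differed from the other wells after adjustment. The 16 families of at least 4 wells had medians between 149.8 and 201.03, and 0 passed an adjusted p of 0.05 in a two-sided permutation test over wells (1 did so before adjustment). The calcium/calmodulin and AMPK-related kinases, 16 wells from STK33 at 170.6 to CAMKV at 254.1, had the highest median, 201.03, and a mean 0.18 above the other wells on the log2 scale (permutation p = 0.0175, adjusted p = 0.281). Cyclin-dependent kinases and CKS subunits, 11 wells from CDK4 at 152.6 to CDK9 at 258.1, were 0.17 above (permutation p = 0.0594, adjusted p = 0.426). The mitotic and checkpoint kinases, 11 wells from NEK3 at 160.1 to PLK3 at 240.2, were 0.14 above (permutation p = 0.107, adjusted p = 0.429). In these 3 families the wells below the median of all wells numbered 5, 3 and 2.

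The lowest family median, 149.8, was that of the 5 kinases that activate NF-kB, from MAP3K14 at 104.4 to TBK1 at 211.2, with a log2 difference of -0.22 (permutation p = 0.0798, adjusted p = 0.426). This family passed when TUBB2A alone was used for scaling (adjusted p = 0.0453 in the same permutation test), the scaling that lowers MAP3K14 most. The 4 G protein-coupled receptor kinases ran from GRK6 at 104.3 to ADRBK1 at 181.5, and all 4 were below the median of all wells (log2 difference -0.20, adjusted p = 0.457). The widest family was that of the MAPK cascade, 10 wells which held both the lowest well, MAPK12, and the highest, MAPK7. Its log2 SD was 0.463, against 0.285 for all wells, and its median, 182.6, was that of the screen as a whole. Among the 18 tyrosine kinases TYK2 was lowest at 126.8 and SYK highest.

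In the other families the lowest and highest wells were ADCK5 at 137.4 and VRK2 at 222.04 among RIO, ADCK, VRK and FASTK kinases, MVK and UCK2 among nucleotide, creatine and cofactor kinases, and AKT1 at 144.5 and SGK at 229.9 among AKT, PDPK1, SGK and S6 kinases. Lipid and inositol kinases ran from SPHK2 to PIK4CB at 229.6, Hippo pathway and STE20 kinases from PAK4 to STK38L at 204.5, and glycolytic, glycerol and galactose kinases from PKM2 to PDK1. The TGF-beta family receptors with LIMK, TESK and ILK ran from LIMK1 to ILK at 208.5, PKA and PKC kinases from PRKCD at 141.3 to PKN2 at 233.5, and casein, CLK, DYRK and HIPK kinases from CSNK1A1L at 158.6 to DYRK2. Adjusted p-values in these 9 families lay between 0.457 and 0.861. Each family overlapped every other in at least a part of its range, and kinases of a family are different treatments rather than replicates of one.

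**Figure D3:**
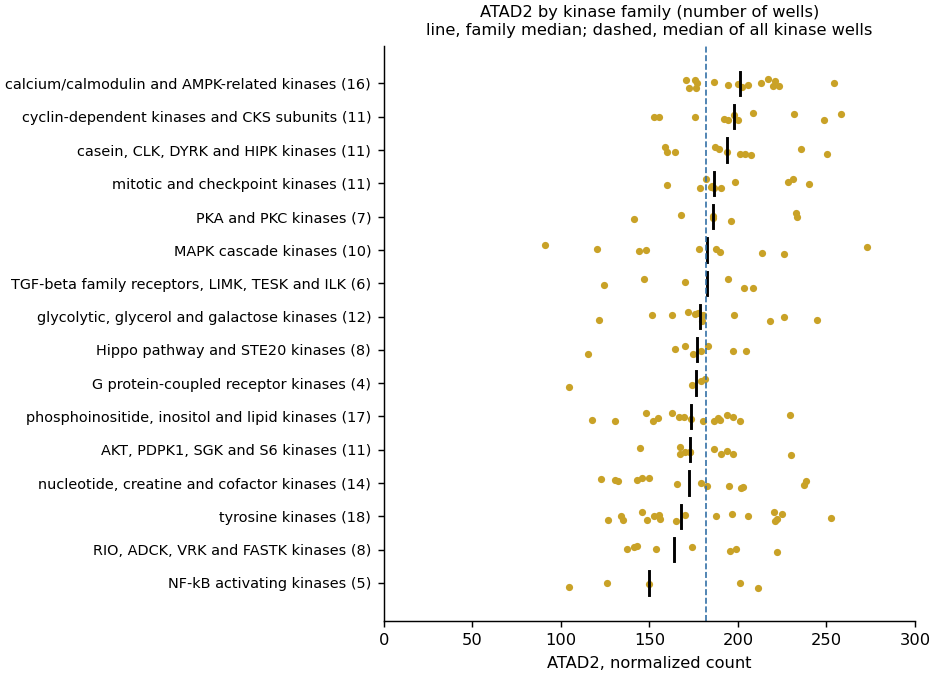
Normalized count of ATAD2 in the wells of 16 kinase families (number of wells in brackets), each point a well, with a line at each family's median and a dashed line at the median of all kinase wells, 181.9. Family medians run from 149.8 for NF-kB activating kinases to 201.03 for calcium/calmodulin and AMPK-related kinases, and the families overlap.

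Subunits and kinases of the cell-cycle CDK group were mostly above the median of all wells and members of the p38 route mostly below it. CKS2 was at 248.8, CKS1B at 231.6, CDK2 at 208.4, CDK7 at 197.5 and CDC2, the mitotic CDK1, at 192.3, all above 181.9. CDK4, which drives entry into the cell cycle, was the exception at 152.6. On the p38 route MAPK14, which is p38 alpha, was above the median at 225.9, and the p38-activating kinase MAP2K6 at 177.8 was just below it. MAP3K6 at 148.04, MAPK13 (p38 delta) at 143.9, MAP3K7 (TAK1) at 125.9 and MAPK12 were lower, so the 3 p38 kinases of the group spanned nearly the whole screen. From PI3K to AKT the wells stayed between 144.5 and 197.1, with PIK3CG at 197.1, PIK3R3 at 189.8, PDPK1 at 167.4, PIK3R5 at 162.7, PIK3CB at 155.04 and AKT1 at 144.5. These short lists, of 6 wells each, had medians of 202.9, 145.95 and 165.1 and were not tested. The contrast went in part with runs of 12 consecutive sample numbers. CKS2 and CKS1B were in a run whose 12 wells were all above 181.9. MAPK12 was in a run with 1 well above it, and MAPK13 and MAP3K6 were in a run with 3. The median of the latter run was 156.3. MAP3K7 and MAPK12 were below every other well of their runs. Whether the lists differ within runs was not tested.

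The level of ATAD2 also went with the sample number in the labels, a running number taken here as an order of handling. In 17 blocks of 12 consecutive numbers, 46.2% of the sum of squares of ATAD2 over kinase wells lay between blocks (permutation test, p = 1e-05, the smallest that 100000 draws can give), and within blocks the SD fell to 0.209 from 0.285. Among 20 rows above background ATAD2 ranked 6 in this share, between 67.1% for UHRF1 and 18.3% for ADAM12. In the block of numbers 25 to 36, the 12 wells were at 209.1 to 272.95, all above the median of the screen, and this block held 7 of the 10 highest wells (MAPK7, CDK9, CAMKV, DYRK2, CKS2, UCK2 and TK1) and the highest median negative-control level, 52.6. In block 12, counted in order of the numbers, the wells were at 90.96 to 207.6 with a median of 130.4, and 1 of 12 was above the median of the screen. The latter block held 5 of the 10 lowest wells, MAPK12, STK32C, PAK4, SPHK2 and MVK, and had the highest median scaling factor, 1.61. Over the kinase and control lanes ATAD2 had a Spearman correlation of 0.497 with the positive controls and of -0.245 with the scaling factor (adjusted p = 5e-05 and 0.000825 by permutation, over 5 relations). Pearson's r was 0.393 and -0.221 (adjusted p = 0.0001 and 0.00295), and 0.463 and -0.281 without the 2 farthest lanes. With block means subtracted the same correlations were 0.104 and 0.051. The part of handling and that of the kinases in the differences between blocks cannot be told apart, because each kinase is in 1 block.

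**Figure D4:**
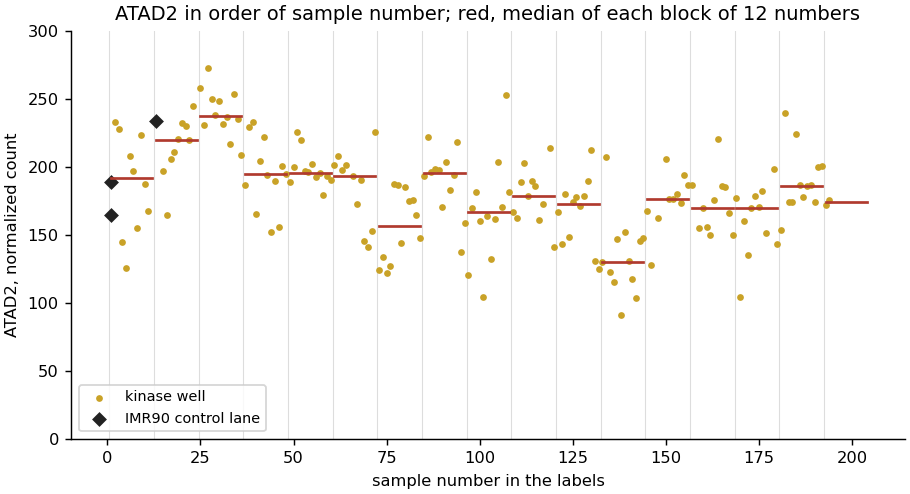
Normalized count of ATAD2 by the sample number in the labels, each point a kinase well and each diamond a lane of the IMR90 controls, with a red line at the median of each block of 12 numbers. The wells numbered 25 to 36 have a median of 237.9 and those of block 12 a median of 130.4.

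Set against its own block, the list of extreme wells changed. MAPK12, GRK6 and MAP3K14 stayed below -2.5, at -2.53, -3.06 and -2.89, and MAP3K7 joined them at -2.61, while STK32C was at -1.64. SYK and DYRK4 rose above 2.5, at 3.03 and 3.14. SYK was at 252.8 where the other 11 wells of its block ran from 104.3 to 203.9, and DYRK4 was at 207.6 where the other 11 ran from 90.96 to 151.95. MAPK7, the highest well of all, was 1.15 times its block's median. The NF-kB activating kinases were 0.26 lower than other wells on the log2 scale after centring (permutation p = 0.00671, adjusted p = 0.107) and RIO, ADCK, VRK and FASTK kinases 0.15 lower (p = 0.0176, adjusted p = 0.141), so that 2 of 16 families passed before adjustment and 0 after it. The calcium/calmodulin and AMPK-related kinases were 0.08 above (permutation p = 0.0879, adjusted p = 0.352), and cyclin-dependent kinases 0.02 above.

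Across wells, the rows most like ATAD2 were Tet1, MyrFlag and UHRF1. Of 19 rows above background set against ATAD2 over the kinase and control wells, 42.1% had a positive and 36.8% a negative Spearman correlation with an adjusted p under 0.05 (adjusted over 20 relations, PuroR being the other), so passing that threshold is common on this panel, where all rows share their scaling factor. Tet1 had rho 0.62 and r 0.67, and r was 0.65 without the 2 wells farthest from its median. MyrFlag had rho 0.57 and r 0.61, and 0.57 without those wells. UHRF1 had rho 0.485, r 0.55 and 0.54. For each of these rows the adjusted permutation p was 2.86e-05 for rho and 2.5e-05 for r. TUBB2A, a normalizing gene whose level is tied to that of PGK1 by the scaling, had rho 0.387 and PPM1D 0.385.

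Within blocks the first 3 relations changed little. After subtraction of block means rho was 0.627 for Tet1, 0.54 for MyrFlag and 0.434 for UHRF1 (adjusted p = 4e-05 for each, by permutation within blocks). The row PLA2R1, named for a phospholipase A2 receptor, had 0.229 and the row Tet2 0.298. Computed inside each of the 16 blocks with at least 9 wells, rho for Tet1 was positive in 16 blocks, from 0.098 to 0.839 with a median of 0.746. For MyrFlag it was positive in 16 blocks, from 0.118 to 0.839, and for UHRF1 in 14 blocks, from -0.524 to 0.902. The block of numbers 25 to 36, where ATAD2 was highest, gave the -0.524 for UHRF1. Scaled by the positive controls only, rho was 0.541 for Tet1, 0.542 for MyrFlag and 0.431 for UHRF1. Scaled by B2M only it was 0.901, 0.908 and 0.836. That rise was not particular to these 3 rows, since with B2M only NeoR went from 0.189 to 0.778 and PuroR from -0.252 to 0.27.

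**Figure D5:**
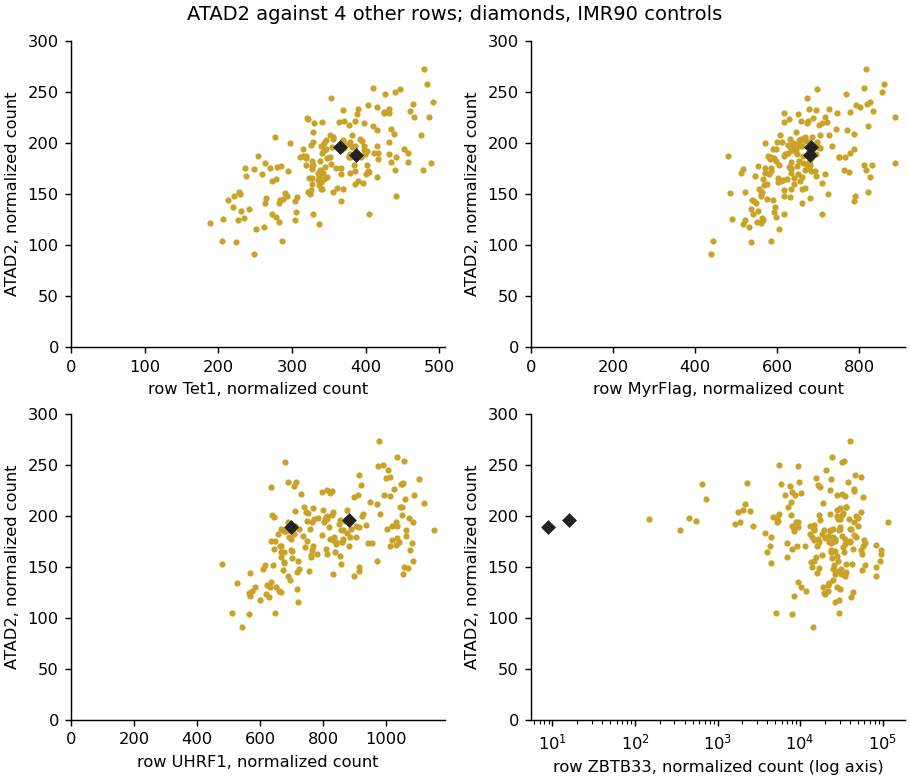
Normalized counts of ATAD2 in the kinase wells (points) and 2 IMR90 controls (diamonds) against the rows Tet1, MyrFlag, UHRF1 and ZBTB33, the last on a log axis. ATAD2 is higher where Tet1 (rho 0.62), MyrFlag (rho 0.57) and UHRF1 (rho 0.485) are higher, and shows little relation to ZBTB33 (rho -0.16, and 0.02 within blocks).

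The rows with the most negative correlation with ATAD2 were PLCZ1, PGK1 and B2M. PLCZ1, a sperm phospholipase, had rho -0.52 (r -0.52, adjusted p = 2.86e-05 for rho), and rho was -0.33 within blocks. It had a median of 26 counts and passed the negative-control level in 72.4% of the kinase lanes. PGK1, a normalizing gene, had rho -0.35 and r -0.47. B2M, the light chain of class I MHC and not used for scaling, had rho -0.33 and r -0.44 (-0.46 without the 2 farthest wells, adjusted p = 7.5e-05 for rho), and -0.44 within blocks for both. Of the 10 wells lowest in ATAD2, 9 were above the B2M median of the kinase wells, 40142, with 81040 in MAPK12, 88720 in STK32C, 69870 in MAP3K14 and 61890 in GRK6, and PAK4, at 36980, was the exception. Of the 10 wells highest in ATAD2, 9 were below that median, and SYK, at 63390, was the exception.

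The other rows named for transgenes, drug resistance or ZBTB proteins had weak relations to ATAD2. ZBTB33, high in the kinase wells only, had rho -0.16 and r -0.16 (adjusted p = 0.0383 and 0.045), and 0.02 after block means were subtracted (adjusted p = 0.853), with 8 of 16 blocks positive. ZBTB38 was at 1625 and 3608 in the controls and at 83.96 to 60001 in the kinase wells but at 4.29 to 8.32 in the reference RNA. It had rho -0.15 (adjusted p = 0.0497) and r -0.155 (adjusted p = 0.0522), and rho was -0.002 within blocks (adjusted p = 0.98). PuroR did not pass the negative-control level in any kinase lane (0 lanes), and its rho of -0.25 was 0.02 within blocks. NeoR, counted in every group, had rho 0.19 (r 0.24, adjusted p = 0.0166 and 0.00192) and 0.24 within blocks. ZBTB4 passed the negative-control level in 10.8% of the kinase lanes and was not set against ATAD2. Over a range of ZBTB33 from 149.9 to 114790, ATAD2 spanned 3.0-fold from its lowest to its highest well. The highest, MAPK7, had 39867 of ZBTB33 and the lowest, MAPK12, had 14410.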

How the data were processed

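Nanostring counts of 197 lanes were analysed, with 75 rows per lane. Per the labels, the deposited files hold raw counts of each probe, with 6 positive controls, 8 negative controls and 4 housekeeping genes. The authors also deposited a table of normalized signal, used here as an alternative only, in which 8 lanes were unscaled. Genome builds do not enter, since probes are named by transcript, and 55 of 61 endogenous and housekeeping probes had an accession found in RefSeq.

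Counts were scaled to the geometric mean of the positive controls and then of PGK1, TBP and TUBB2A, each relative to its mean over lanes, and log2(value + 1) was taken. Lanes of one name were averaged. Z-scores used 185 IMR90 wells and a limit of 2.5 SD. SW39 was compared with the controls in edgeR 4.0.16 (quasi-likelihood, R 4.3.3) on counts of 57 rows, with library sizes from the same factors, lanes of one name summed and Benjamini-Hochberg adjustment. Each SE given with it is the absolute log2 difference divided by the square root of edgeR's F statistic. DESeq2 1.42.0 and limma 3.58.1 were alternatives. Kinase families, blocks of 12 sample numbers and correlations were tested by permutation of wells (100000 draws, within blocks for centred values, SciPy 1.17.1, two-sided). Scripts were tested on simulated data. A further 14 wells of unrelated kinases were not tested as a family.

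The wells named are the 10 highest and 10 lowest for ATAD2, those beyond 2.5 SD, the extremes of each family and the members of 3 short lists, and the rows named are the 5 with the highest and 3 with the lowest rho, the rows for the transgene and methylation genes and the normalizing genes. ADAM12, DAZL, FMR1NB, PLA2R1 and Tet2 were named after their values were seen, as were the wells used to give B2M. The gene, families, lists and tests were chosen with earlier results of these data known. Depth limits each well to its own counting interval.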

Additional observations from a re-analysis of the deposited data

How the results depend on the processing

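The difference of SW39 from the controls kept its direction and its side of the threshold in all 16 alternatives, from 3.26 with TBP only to 4.80 with TUBB2A only, on the log2 scale, and from 3.79 to 3.97 without 1 sample. With the replicate block it was 3.89 (adjusted p = 2.26e-32), and 9 rows were higher and 4 lower, against 8 and 5. The labels do not say that the numbers pair the samples, and their deviations correlated at 0.53 over 14 rows. Counts of rows higher and lower moved to 27 and 1 with the positive controls alone, 32 and 1, 6 and 14 or 7 and 7 with TUBB2A, TBP or PGK1 only, to 2 and 1 or 2 and 0 without control 1 or 2, to 5 and 0 or 5 and 1 without SW39 sample 1 or 2, to 6 and 2 for the first lane only, to 7 and 2 with the second lane of control 2 taken as control 1, to 10 and 2 with 4 housekeeping genes, and to 7 and 3 in DESeq2 over 43 rows. The reference RNA, 3.03 above the controls on the log2 scale, moved to 4.10 with the positive controls only, 3.33 with 4 housekeeping genes, 4.24 with B2M only, 2.05 with PGK1 only, 2.62 with TBP only, 4.44 with TUBB2A only, 3.82 in the authors' deposited table, where its lanes are unscaled, 2.91 with second lanes left out and 2.96 with second lanes given to the name with their number. Without 1 reference lane it ran from 3.01 to 3.05. The kinase wells were above the controls with the positive controls only, by 0.16 (p = 0.411 by the exact permutation test).

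Wells above 2.5 SD, 0 in the report, were 1 with the positive controls only, 1 with TUBB2A only and 2 with block means subtracted. Wells below -2.5, 4 in the report, were 2 with PGK1, with TBP or with TUBB2A only. In the authors' deposited table they were 2, MAPK12 and PIP5K2A. PIP5K2A, the well with the lowest total, is unscaled in that table and holds its raw 28 counts. Its Z-score was -7.58 there and -0.14 in the report. Without sample numbers of block 12, the block that holds MAPK12 and STK32C, there were 2. With median and MAD in place of mean and SD there were 6, PAK4 (-2.74) and SPHK2 (-2.63) being added. Family tests gave 1 with TUBB2A only, the NF-kB activating kinases, and 0 in the other 14 alternatives. The share between blocks stayed between 35.4% and 48.3%. The Spearman correlation with Tet1, MyrFlag and UHRF1 passed in all 13 alternatives, from 0.541, 0.493 and 0.416 upward. The Spearman correlation with PuroR changed sign to 0.016 (positive controls only), 0.27 (B2M only) and 0.022 (block means subtracted), that with ZBTB33 to 0.115, 0.096 and 0.019 in the same order, and that with ZBTB38 to 0.116 and 0.07 in the first 2. The Spearman correlation no longer passed for ZBTB33 in the authors' table (-0.149), with background subtracted (-0.156) and without numbers 25 to 36 (-0.151). It no longer passed for ZBTB38 in the authors' table (-0.138), with background subtracted (-0.145), second lanes left out (-0.148), block means subtracted (-0.002), without PIP5K2A (-0.152), with second lanes by number (-0.144), without numbers 25 to 36 (-0.144) and scaled by PLA2R1 (-0.122). It no longer passed for NeoR with background subtracted (0.16), without numbers 25 to 36 (0.101) and without block 12 (0.139). The alternatives that left out PIP5K2A or a range of numbers, moved second lanes by number or scaled by PLA2R1, PGK1, TBP or TUBB2A alone were chosen after seeing the data. The cause of these changes was not tested.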

Other observations

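Some lanes carried the name of one sample and the number of another. The second lane of PTK2, a focal adhesion kinase, was at 110.3 for ATAD2, the first lane of that name at 246.5, and the lane of AKT1 that shares the number 4 at 144.5. The second lane of PIK3CG was at 208.6, the first at 186.2, and PLK1, which shares the number 3, at 228.4. The second lane of the second IMR90 control was at 164.7, its first at 233.7, and the first control, which shares the number 1, at 188.7. The lanes of one name were averaged in the report. Which name or number is right was not tested.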
